A study of Mus musculus with 8 samples.

Results

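The 10 genes described here form the kallikrein desquamation cascade of the epidermis: the kallikrein genes Klk5, Klk6, Klk7, Klk8, Klk10, Klk11 and Klk14, the inhibitor gene Spink5, the matriptase gene St14 and the corneodesmosin gene Cdsn. They were taken by symbol, with earlier results of these data known, and all 10 were found among the 16902 gene symbols that both deposited tables list. Expression was measured by stranded sequencing of polyadenylated RNA from epidermis that dispase had freed from the back skin of CD1 mice. Ovol1 encodes an epithelial zinc-finger repressor, and imiquimod (IMQ) activates Toll-like receptors and brings on a psoriasis-like inflammation of mouse skin. The 8 libraries formed 4 groups, each with 1 female and 1 male: IMQ-treated Ovol1 -/- mice, IMQ-treated Ovol1 +/+ controls, untreated Ovol1 -/- mice and untreated Ovol1 +/- controls. The control genotype thus differed between the treatments, although the deposited column names call both control groups WT. The sources used here do not give the allele behind the -/- label, the ages of the mice or the dose and length of the IMQ treatment.

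Kallikreins are secreted serine proteases that granular keratinocytes store in lamellar granules and release below the cornified layer. There they cut the corneodesmosomes that hold corneocytes together, so that the outermost cells can be shed. Klk5 and Klk7 are the best-known shedding enzymes, and Klk5, a trypsin-like protease, activates the chymotrypsin-like Klk7. LEKTI, the product of Spink5, inhibits several of these enzymes, and its loss causes Netherton syndrome in humans. Matriptase is a membrane-bound protease upstream of kallikrein activation in mouse skin, and corneodesmosin is an adhesive corneodesmosome protein that the kallikreins degrade.

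Libraries held 28600596 to 43080052 recovered reads. These are whole reads worked back from the deposited normalised counts, which in each library are whole multiples of a single step. Ovol1 itself had 13077 to 13457 normalised counts in the IMQ libraries labelled -/- against 7635 to 9556 in their controls, and 26601 to 27433 in the untreated libraries labelled -/- against 14582 to 16629 in theirs. Which part of the transcript a deletion would remove is not known here, so these values do not check the label, and the -/- groups are called labelled knockouts. The 6 basal keratinocyte markers summed to between 14081 and 20019 CPM (reads of a gene scaled by a library total that TMM, a trimmed-mean method, had adjusted). Markers of dermal fibroblasts varied widely within groups, their 6 genes summing to 61.5 and 1640 CPM in the female and male labelled knockouts under IMQ, 228 and 2564 in the IMQ controls, 49.4 and 493 in the untreated labelled knockouts and 107 and 458 in the untreated controls. In such bulk samples, fewer cells of a type and less RNA per cell cannot be told apart. With 1 female and 1 male per group, and nothing on cages or litters in the labels, p-values measure only the spread between these libraries.

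The 7 kallikrein genes lie in 1 stretch of a tandem cluster on the plus strand of mouse chromosome 7 (mm10, GENCODE vM21). Klk14, from 43690418 to 43695536, is at the lower end of this stretch and Klk5, from 43841971 to 43851181, at its upper end. The stretch measures 161 kb and also holds Klk13, Klk12 and Klk9. RefSeq promoter sequences on GRCm38.p6 were found for 8 of the 10 genes, not for Spink5 and St14. The following 3 are printed because they stand before the kallikreins with the widest difference between IMQ and untreated epidermis (Klk6 and Klk10) and before the most abundant kallikrein (Klk7). Each is read 5′ to 3′ on the plus strand and stops before the annotated gene start: chr7:43824294-43824498 for Klk6, chr7:43780804-43781034 for Klk10 and chr7:43811044-43811293 for Klk7. Capitals mark matches to the motifs named after the sequences.
Klk6: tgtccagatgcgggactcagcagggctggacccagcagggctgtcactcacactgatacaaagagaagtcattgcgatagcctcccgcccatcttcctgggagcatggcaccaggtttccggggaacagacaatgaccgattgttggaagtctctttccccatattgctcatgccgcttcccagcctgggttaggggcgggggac
Klk10: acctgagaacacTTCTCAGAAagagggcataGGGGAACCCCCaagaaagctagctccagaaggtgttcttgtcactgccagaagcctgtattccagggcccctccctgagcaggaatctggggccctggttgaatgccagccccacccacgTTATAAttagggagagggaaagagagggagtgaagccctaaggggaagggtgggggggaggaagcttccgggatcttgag
Klk7: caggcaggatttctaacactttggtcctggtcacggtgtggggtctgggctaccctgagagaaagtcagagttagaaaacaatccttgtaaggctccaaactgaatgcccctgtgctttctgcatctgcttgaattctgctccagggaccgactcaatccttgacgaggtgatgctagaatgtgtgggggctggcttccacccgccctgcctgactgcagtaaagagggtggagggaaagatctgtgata
The 250 bases before each RefSeq start were searched on both strands for CCGTTA (the core that OVO proteins bind), TGANTCA (AP-1), TTCNNNGAA (STAT), GCCNNNGGC (AP-2), TATAA and the NF-kappaB consensus. In Klk10 a STAT match began 238 bases before the start, overlapping NF-kappaB matches began 219 and 218 bases before it, and TATAA matched on both strands 99 and 98 bases before it. The Klk6 and Klk7 windows held none of the 6 motifs. Elsewhere in the cascade there was an NF-kappaB match before the inner Klk11 start, an AP-2 match before Klk8 and a STAT match before the outer Cdsn start. Among 32851 promoters, 2.18% held the OVO core, 6.75% AP-1, 7.02% STAT, 13.7% AP-2, 22.8% TATAA and 7.25% the NF-kappaB consensus in the same window. These are matches of letters only, and a window without a match says nothing of the factor.

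Levels were compared between genes as CPM of recovered reads per kb of annotated exon, so that long and short transcripts share a scale. Klk7 was the most abundant kallikrein in all 4 groups, with a mean level of 920 ± 130 CPM per kb in IMQ labelled knockouts, 708 ± 62.3 in IMQ controls, 581 ± 30.8 in untreated labelled knockouts and 579 ± 63.9 in untreated controls (SD, n = 2). In the IMQ labelled knockouts Cdsn (400 ± 123 CPM per kb) and Spink5 (336 ± 96.0) followed and overlapped, and Klk10 (255 ± 15.1) and Klk6 (221 ± 51.8) took ranks 4 and 5, above Klk5 (148 ± 56.9) and Klk11 (141 ± 17.4). Libraries overlapped from Klk10 to Klk6, from Klk6 to Klk5 and from Klk5 to Klk11. In the IMQ controls Klk5 had rank 4 at 198 ± 13.5 CPM per kb, above Klk10 at 124 ± 5.87, Klk11 at 92.0 ± 20.0 and Klk6 at 89.0 ± 15.4, where Klk11 overlapped Klk6 and Klk6 overlapped Klk8.

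In untreated epidermis the order was different. In the controls the level of Spink5 was 583 ± 76.2 CPM per kb, which overlapped that of Klk7, and Cdsn followed at 438 ± 43.2 without overlap. Klk5 came next, at 155 ± 39.8 CPM per kb in untreated labelled knockouts and 202 ± 50.6 in untreated controls. Klk8 and Klk11 overlapped each other, in labelled knockouts at 48.4 ± 13.6 and 49.2 ± 1.26 CPM per kb and in controls at 58.8 ± 9.58 and 56.7 ± 13.8. Klk10, St14, Klk6 and Klk14 closed the order in both untreated groups without overlap, the last at 1.65 ± 1.05 CPM per kb in labelled knockouts and 2.31 ± 0.40 in controls. Outside the cluster, Spink5 lies on chromosome 18 (43963235 to 44022501, plus strand), St14 on chromosome 9 (31089402 to 31131853, minus strand) and Cdsn on chromosome 17 (35552128 to 35557180, plus strand).

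**Figure D1:**
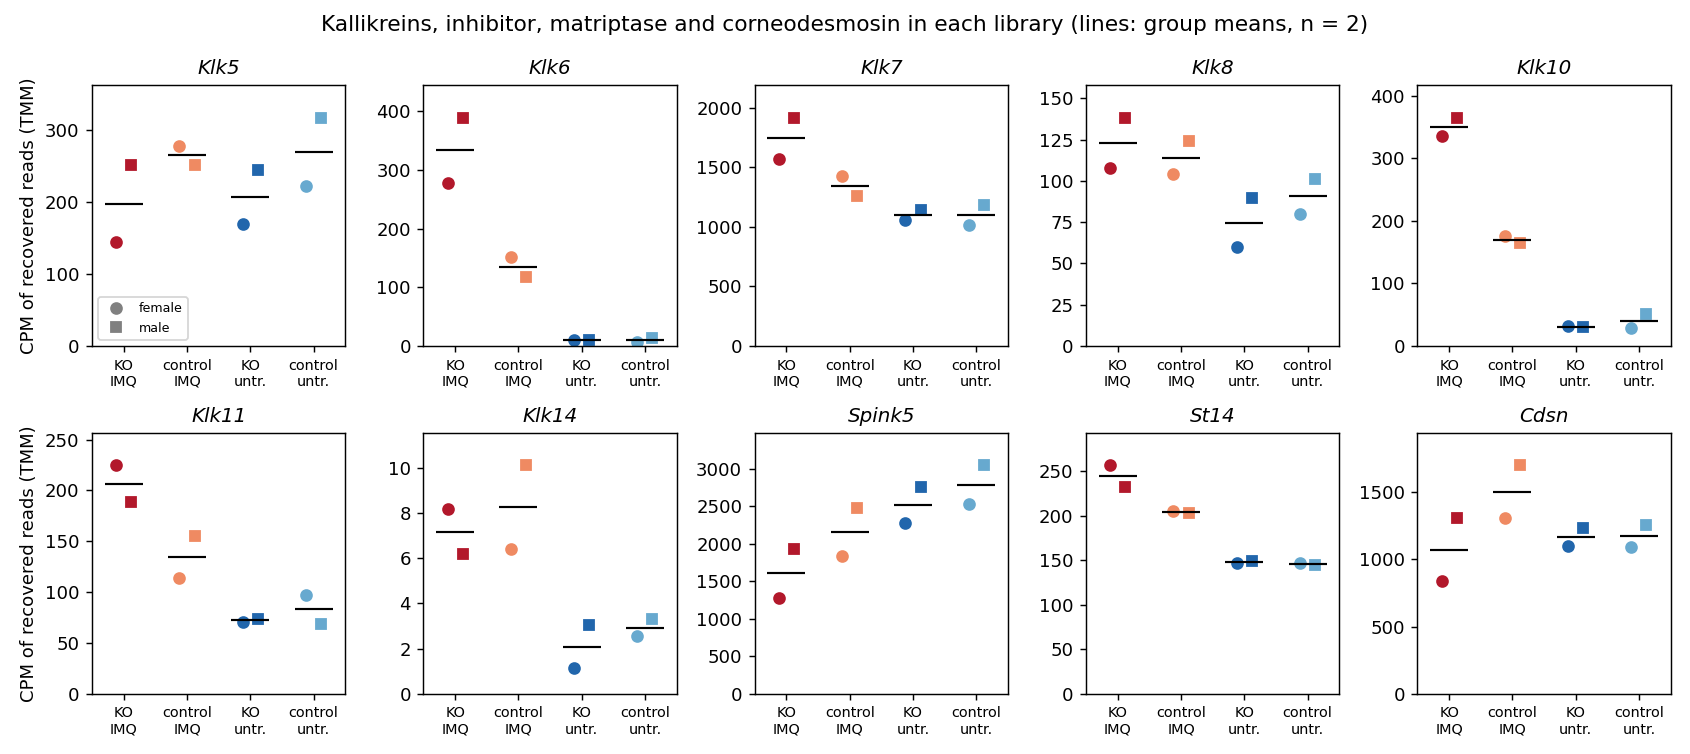
CPM of recovered reads (TMM-scaled, linear axis from 0) of the 10 genes in each library, with labelled knockout (KO) and control groups under IMQ and untreated (untr.), circles for females, squares for males and lines for group means. Klk6 is at 279 and 390 CPM in the IMQ labelled knockouts and at 7.36 to 13.9 CPM in the 4 untreated libraries.

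The first question was how the cascade differed between IMQ-treated and untreated epidermis of the same genotype label. Because the authors scaled the tables separately, recovered reads were rescaled over all 8 libraries by TMM, a trimmed-mean method, and given as CPM, with no test. In the controls, treatment and genotype (+/+ under IMQ, +/- untreated) cannot be told apart. Folds are ratios of group means after adding 0.5 CPM. The median log2 fold over 14614 genes was -0.01 in labelled knockouts and 0.02 in controls. TMM scaling itself brings the bulk of genes near 0, so these medians are no check of the scale.

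Klk6, a trypsin-like kallikrein, was the member furthest apart between treatments. It was at 279 and 390 CPM in the female and male IMQ labelled knockouts against 9.64 and 10.4 in the untreated ones, a 31.8-fold higher mean. In the controls it was at 151 and 118 CPM under IMQ against 7.36 and 13.9 untreated, 12.2-fold higher. All 4 IMQ libraries lay above all 4 untreated ones.

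Klk10, a secreted kallikrein whose substrates are poorly known, came next. It was at 336 and 365 CPM in the IMQ labelled knockouts against 31.2 and 30.6 in the untreated ones (11.2-fold), and at 176 and 164 CPM in the IMQ controls against 28.6 and 52.0 in the untreated ones (4.18-fold). Here too no IMQ library overlapped an untreated one.

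Klk14, which in humans activates KLK5, was the scarcest member, at 7.18 ± 1.41 CPM in IMQ and 2.09 ± 1.33 in untreated labelled knockouts (2.96-fold, SD, n = 2) and at 8.26 ± 2.62 in IMQ and 2.93 ± 0.51 in untreated controls (2.55-fold). Its untreated values rest on 42 to 114 reads per library, and without the untreated male labelled knockout the log2 ratio of IMQ over untreated in labelled knockouts is 2.22 in place of 1.57 (1.12 without the female). Klk11, a trypsin-like kallikrein also called hippostasin, was at 225 and 189 CPM in IMQ against 70.9 and 73.5 in untreated labelled knockouts (2.85-fold), and at 114 and 156 in IMQ against 97.5 and 68.8 in untreated controls (1.62-fold). Both genes were higher in every IMQ library than in the untreated libraries of the same label.

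The main shedding enzymes were much closer between treatments. Klk7 was at 1569 and 1916 CPM in IMQ against 1060 and 1142 in untreated labelled knockouts (1.58-fold), and at 1426 and 1259 in IMQ against 1012 and 1183 in untreated controls (1.22-fold). Klk8, a trypsin-like protease of the same cascade, was 1.65-fold higher in labelled knockouts and 1.26-fold higher in controls, without overlap in either. Klk5 overlapped between treatments in both genotype labels, at 198 ± 76.0 CPM in IMQ and 207 ± 53.1 in untreated labelled knockouts and at 265 ± 18.1 in IMQ and 269 ± 67.5 in untreated controls (SD, n = 2).

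The inhibitor gene Spink5 stood lower under IMQ. It was at 1283 and 1933 CPM in IMQ against 2277 and 2761 in untreated labelled knockouts, and at 1836 and 2474 in IMQ against 2529 and 3045 in untreated controls. The IMQ mean was 0.638 times the untreated mean in labelled knockouts and 0.773 times in controls. The groups did not overlap within either label, although the male IMQ control came close to the female untreated control. The activator gene St14 was 1.65-fold higher under IMQ in labelled knockouts, at 245 ± 17.0 CPM in IMQ and 148 ± 2.17 in untreated libraries, and 1.40-fold higher in controls, at 205 ± 1.72 CPM in IMQ and 146 ± 1.07 in untreated libraries (SD, n = 2). Cdsn overlapped in labelled knockouts, at 839 and 1305 CPM under IMQ and 1097 and 1231 untreated, and was 1.28-fold higher under IMQ in controls, at 1308 and 1699 CPM against 1090 and 1253 untreated.

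Counted over the cascade, 4 of 10 genes in labelled knockouts (Klk6, Klk10, Klk11 and Klk14) and 3 of 10 in controls (Klk6, Klk10 and Klk14) were at least 2-fold higher under IMQ without overlap, where 11.7% and 7.75% of all genes tested were. Without regard to size, 7 genes in labelled knockouts and 8 in controls were higher under IMQ without overlap (39.9% and 35.3% of all genes), and Spink5 alone was lower in each (40.1% and 32.3% of all genes). None was 2-fold lower without overlap, where 12.8% of all genes were in labelled knockouts and 6.91% in controls. Summed leukocyte markers, which moved with the treatment in labelled knockouts, were at 829 and 740 CPM in IMQ and 511 and 338 in untreated labelled knockouts, and at 700 and 473 in IMQ and 539 and 317 in untreated controls. Hair follicle markers were lower under IMQ without overlap in both labels, at 128 and 122 CPM in IMQ and 156 and 144 in untreated labelled knockouts, and at 119 and 126 in IMQ and 206 and 153 in untreated controls. Sebaceous gland markers were lower under IMQ without overlap in labelled knockouts, at 2045 and 2249 CPM in IMQ and 2742 and 2651 in untreated libraries, and overlapped in controls. Endothelial markers were higher under IMQ without overlap in controls, at 30.9 and 4.37 CPM in IMQ and 3.38 and 2.66 in untreated libraries, and overlapped in labelled knockouts. The sums of the other marker lists overlapped between treatments within both labels. No marker gene found in the tables was at 0 in both libraries of a group, and the part of these lists in the kallikrein levels was not tested.

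The second question was how labelled knockouts differed from controls under IMQ. It was tested with limma on log2 of the normalised count plus 1 over 14614 genes, with Benjamini-Hochberg adjusted p and a threshold of 0.05. None of the 10 genes passed, where 0.438% of all genes did. By other tools, edgeR's quasi-likelihood test on recovered reads called 0 of them, where it called 0.294% of all genes. DESeq2 called 2 of them, Klk6 and Klk10, where it called 8.5% of all genes. At an unadjusted p under 0.05, limma had 5 of the 10, all higher in labelled knockouts (Klk6, Klk7, Klk10, Klk11 and St14), against 10% of all genes in that direction and 22% in either. With sex as a replicate block in limma, these 5 stayed under that level. Cdsn (-0.51 on the log2 scale) and Spink5 (-0.44), both lower in labelled knockouts, then fell under it too. The single direction thus held only in the fit without sex.

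Klk6 and Klk10 had the widest differences. Klk6 had 8608 and 11873 normalised counts in the female and male labelled knockouts, against 4611 and 3640 in the controls. The log2 fold change came to 1.30 (SE 0.30, adjusted p = 0.0878 in limma), and every labelled knockout lay above both controls. The adjusted p of Klk6 ran from 4.67e-04 with DESeq2 to 0.298 over the alternatives tried.

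Klk10 had 10375 and 11136 normalised counts in labelled knockouts against 5354 and 5057 in controls. The groups stood far apart and their members close together, at 1.05 on the log2 scale (SE 0.24, adjusted p = 0.0903 in limma), with 0.95 between the females and 1.14 between the males. Over the alternatives its adjusted p ran from 0.00156 with DESeq2 to 0.367. Klk10 is also the gene whose promoter, printed above, held the STAT, NF-kappaB and TATAA matches, while that of Klk6 held none. The motifs were chosen after values were seen, and the part of such matches in these differences was not tested.

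Klk11 had 6940 and 5747 normalised counts in labelled knockouts against 3482 and 4797 in controls (log2 fold change 0.63, SE 0.21, adjusted p = 0.163), or 0.99 between females and 0.26 between males. Klk7 had 48448 and 58403 normalised counts in labelled knockouts against 43493 and 38792 in controls (log2 fold change 0.37, SE 0.16, adjusted p = 0.222). For neither gene did the groups overlap. Klk8 overlapped, with 3328 and 4215 normalised counts in labelled knockouts against 3178 and 3817 in controls (log2 fold change 0.10, SE 0.23, adjusted p = 0.824).

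The kallikreins Klk5 and Klk14 did not share this direction. Klk5 had 4443 and 7660 normalised counts in labelled knockouts against 8460 and 7758 in controls (log2 fold change -0.47, SE 0.30, adjusted p = 0.381), or -0.93 between females and -0.02 between males. Klk14 overlapped, with 252 and 188 normalised counts in labelled knockouts against 195 and 312 in controls, and its pairs pointed in opposite directions (0.37 and -0.72).

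Spink5 had 39607 and 58904 normalised counts in labelled knockouts against 55988 and 76240 in controls. This was -0.44 on the log2 scale (SE 0.25, adjusted p = 0.333), -0.50 between females and -0.37 between males, and the groups overlapped, since the male labelled knockout lay above the female control. In every group the female library had the lower Spink5 value. With sex as a replicate block in limma, the SE was 0.13 and the adjusted p 0.111. Cdsn had 25910 and 39781 normalised counts in labelled knockouts against 39886 and 52333 in controls (-0.51, SE 0.23, adjusted p = 0.250), separated by a small margin. With the sex block in limma its SE was 0.14 and its adjusted p 0.103. St14 had 7935 and 7099 normalised counts in labelled knockouts against 6281 and 6269 in controls (0.26, SE 0.11, adjusted p = 0.220).

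**Figure D2:**
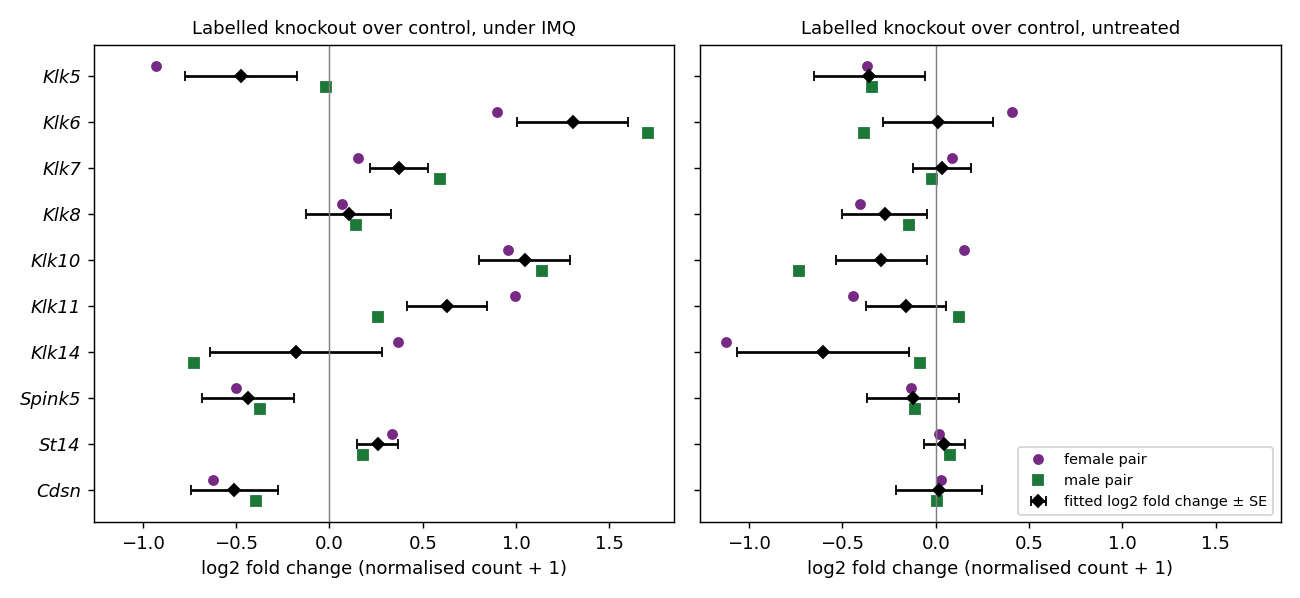
Log2 fold change of labelled knockout over control for the 10 genes, under IMQ (left) and untreated (right), as the fitted value with its SE (diamonds, n = 2 per group) and as the female (circles) and male (squares) pair. Under IMQ, Klk6 and Klk10 stand at 1.30 and 1.05 and Klk5, Spink5 and Cdsn at -0.47, -0.44 and -0.51, while all untreated fitted values lie between -0.60 and 0.05.

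Under IMQ the groups did not overlap in 5 genes that were higher in labelled knockouts, where 26.6% of all genes tested were, and in 2 that were lower (Klk5 and Cdsn), where 26.4% were. The median log2 fold change was 0.18 over the 10 genes, 0.37 over the 7 kallikreins and -0.01 over all genes tested. The 7 granular keratinocyte markers, a cell layer that makes kallikreins, all had negative log2 fold changes, with a median of -0.44 and 0 past the threshold. They summed to 1836 and 3664 CPM in the female and male labelled knockouts and 3952 and 6123 in the controls, with none at 0. Basal keratinocyte markers summed to 14081 and 17062 CPM in labelled knockouts and 18857 and 18938 in controls, without overlap. Sebaceous gland markers summed to 2045 and 2249 CPM in labelled knockouts and 1553 and 1130 in controls, and endothelial markers to 2.96 and 3.46 CPM in labelled knockouts and 30.9 and 4.37 in controls, also without overlap. Summed leukocyte markers, at 829 and 740 CPM in labelled knockouts and 700 and 473 in controls, were likewise higher in labelled knockouts without overlap. Their 6 genes were mixed, with 4 positive and 2 negative log2 fold changes, from -1.70 to 2.11 (median 0.12). Of these genes, 1 was higher and 2 were lower in labelled knockouts without overlap. Fibroblast markers were negative in 6 of 6 cases (median -1.26) and muscle markers in 5 of 5 (median -1.52), with sums that overlapped between the groups. The muscle markers went opposite ways by sex, with a median of -4.35 between females and 1.32 between males. Their sum was 99.6 CPM in the female control, 7.78 in the male control, and 4.86 and 18.0 in the female and male labelled knockouts. No marker gene of these lists was at 0 in both libraries of a group, and the part of these lists in the kallikrein differences was not tested.

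In untreated epidermis the cascade was close between the genotype labels. None of the 10 genes passed in limma, edgeR or DESeq2, and 0 had an unadjusted p under 0.05 in limma, where 0% of all genes passed in limma and 0.609% in DESeq2 (0% in edgeR), and 4.46% had such a p (2.79% in the higher direction). The log2 fold changes ran from -0.60 in Klk14 to 0.05 in St14, with a median of -0.14 against -0.00 for all genes tested. Over the 7 kallikreins the median was -0.27, with 5 negative and 2 positive values. Klk6 had 365 and 395 normalised counts in labelled knockouts against 275 and 515 in controls (0.01, SE 0.30), so that the male and female controls enclosed both labelled knockouts. Klk10 had 1182 and 1163 in labelled knockouts against 1066 and 1934 in controls (-0.29, SE 0.24), and Klk7 had 40087 and 43411 in labelled knockouts against 37767 and 43976 in controls (0.03, SE 0.16). Spink5 had 86134 and 104948 normalised counts in labelled knockouts against 94441 and 113224 in controls (-0.12, SE 0.25). Sebaceous gland markers summed to 2742 and 2651 CPM in labelled knockouts and 1241 and 1952 in controls, and endothelial markers to 5.42 and 3.42 CPM in labelled knockouts and 3.38 and 2.66 in controls, both without overlap, and their part in the values was not tested. Only St14 among the 10 genes was free of overlap, at 5550 and 5693 normalised counts in labelled knockouts against 5484 and 5405 in controls, where 17.4% of all genes were higher and 16.4% lower without overlap.

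Whether the genotype difference itself differed between treatments was tested as an interaction in the same fit, in which the separate scaling of the tables cancels. The change of control genotype (+/+ under IMQ, +/- untreated) does not cancel, so in the interaction it cannot be told apart from the treatment. None of the 10 genes passed in limma, nor did any of the 14614 genes (0%). Klk10 had the widest interaction, 1.34 on the log2 scale (SE 0.34, adjusted p = 0.476 in limma), followed by Klk6 at 1.29 (SE 0.42, adjusted p = 0.476) and Klk11 at 0.79 (SE 0.30, adjusted p = 0.476). These 3 were the members at an unadjusted p under 0.05, all positive, where 10.1% of all genes were, 4.05% in that direction. With sex as a replicate block in limma, Cdsn, with a negative interaction (-0.53), fell under that level too. DESeq2 called 1 member, Klk10 (adjusted p = 0.0181), where it called 0.677% of all genes, and edgeR called 0, as of all genes (0%). The other interactions ran from -0.53 in Cdsn to 0.42 in Klk14.

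Along the cluster on chromosome 7, neighbouring genes differed in both contrasts. Klk6 lies between Klk7 and Klk5, and its fold of IMQ over untreated was 31.8 in labelled knockouts and 12.2 in controls, against 1.58 and 1.22 for Klk7 and 0.956 and 0.983 for Klk5. Klk10 lies between Klk11 and Klk9, with a log2 ratio of 3.48 in labelled knockouts and 2.06 in controls, against 1.51 and 0.69 for Klk11 and 2.48 and 2.07 for Klk9. Of the 10 genes from Klk14 to Klk5, 8 had a positive log2 fold change of labelled knockout over control under IMQ, where 7124 of the 14614 genes tested did. The exceptions were the genes at the ends of this stretch, Klk14 and Klk5. Klk8 (0.10, SE 0.23) and Klk12 (1.06, SE 0.71) were among the 8. Klk1, which starts further along the chromosome at 44225360, was too scarce to be tested.

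**Figure D3:**
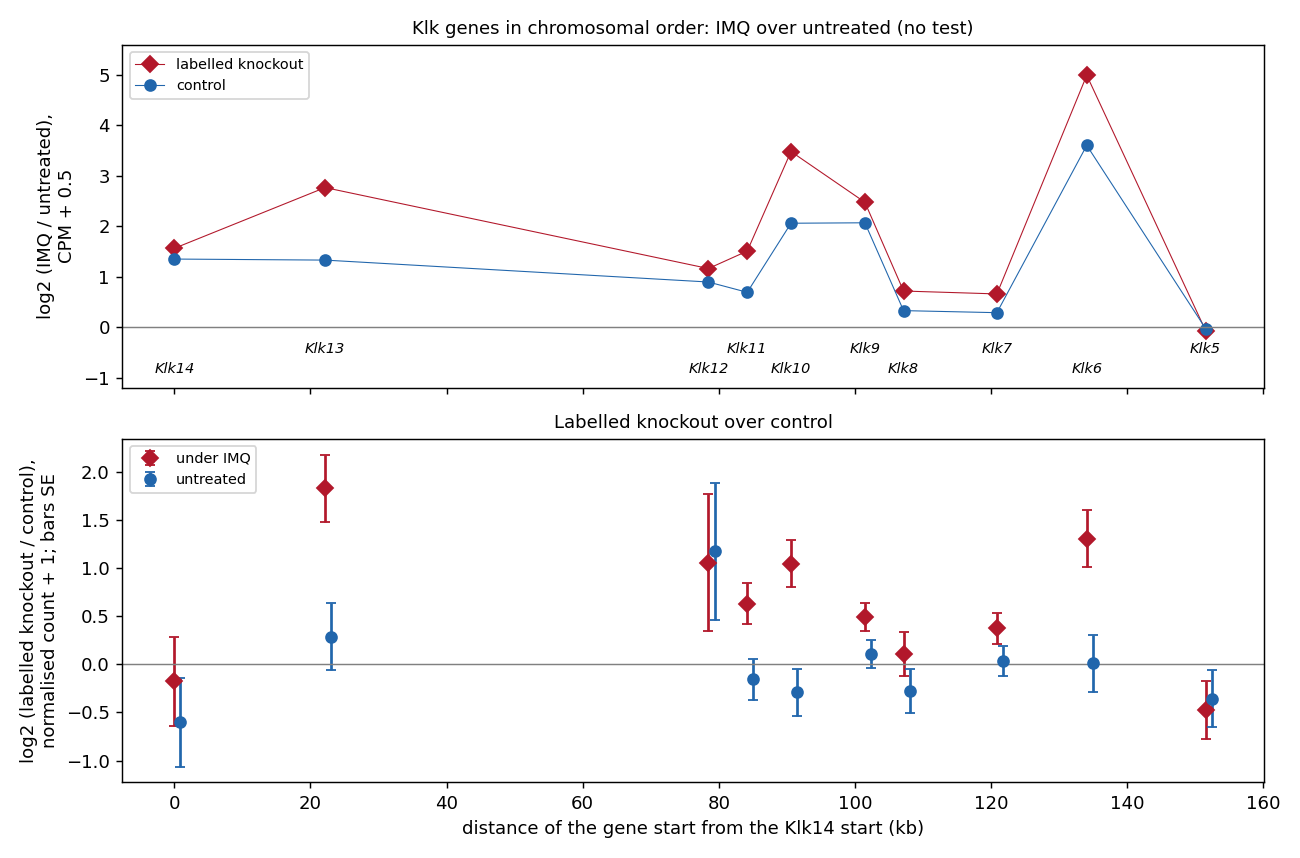
Klk genes by the distance of their start from the Klk14 start (kb): above, log2 CPM ratio of IMQ over untreated in labelled knockouts and controls, below, log2 fold change of labelled knockout over control with its SE (n = 2 per group) under IMQ and untreated. Klk6 and Klk10 peak above at 4.99 and 3.48 in labelled knockouts, while Klk5 beside Klk6 is at -0.07.

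Kallikrein and inhibitor transcripts of the same library can be set against each other without any scaling between libraries. The summed level of the 7 kallikreins per kb was 5.95 and 4.82 times that of Spink5 in the female and male IMQ labelled knockouts and 3.49 and 2.41 times in the IMQ controls. In untreated epidermis the ratio was 1.69 and 1.60 in labelled knockouts and 1.60 and 1.61 in controls. The 4 untreated libraries thus lay close together, the IMQ controls above them and the IMQ labelled knockouts above these. Klk7 made up 51.9% and 52.0% of the sum in IMQ labelled knockouts, 56.2% and 53.4% in IMQ controls, 69.6% and 65.1% in untreated labelled knockouts and 63.1% and 61.0% in untreated controls. The share of Klk6 was 11.6% and 13.2% in IMQ labelled knockouts and 7.47% and 6.27% in IMQ controls, and it stayed under 1% in untreated libraries. The share of Klk5 was 6.75% and 9.67% in IMQ labelled knockouts and 15.5% and 15.1% in IMQ controls. Transcript ratios do not measure the ratio of the proteins, and no p is given for a score over chosen genes.

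**Figure D4:**
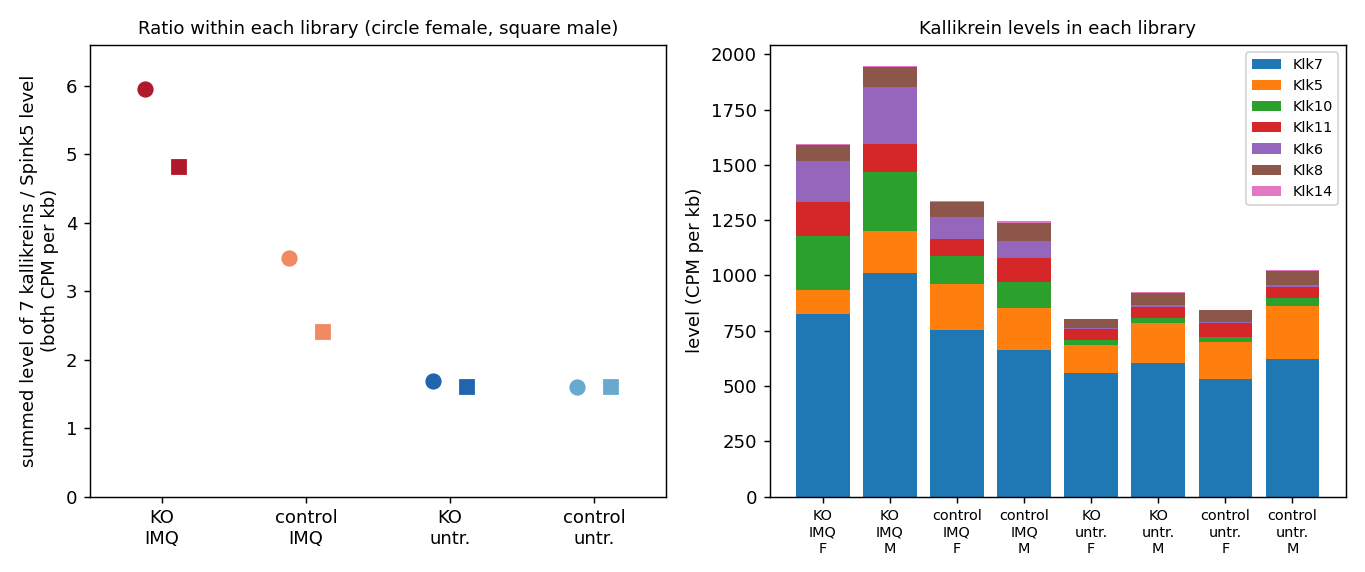
Left, the summed level of the 7 kallikreins over that of Spink5 (both CPM per kb) in each library, and right, the kallikrein levels that make up the sum (F female, M male). The ratio is 4.82 to 5.95 in IMQ labelled knockouts, 2.41 to 3.49 in IMQ controls and 1.60 to 1.69 in the 4 untreated libraries.

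The other genes of the pathway were read from 6 lists, and no gene of any list passed the limma threshold in either contrast or the interaction. Of the 19 other kallikreins listed, 4 were in the tables and 3 were tested. All 3 had positive values under IMQ, where 7124 of the 14614 genes tested did. In limma, 2 of the 3 had an unadjusted p under 0.05, against 10% of all genes in that direction and 22% in either. The other, Klk12, was at 1.06 (SE 0.71) and rests on 22 to 70 reads per IMQ library. Klk13 had 523 and 619 normalised counts in labelled knockouts against 121 and 210 in controls (1.83 on the log2 scale, SE 0.35, adjusted p = 0.0714), a larger fitted value than that of any of the 7 kallikreins above. Klk9 was at 0.49 (SE 0.14, adjusted p = 0.128).

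Among 7 tested protease inhibitors other than Spink5, 4 had positive and 3 negative values under IMQ. Slpi, which encodes an inhibitor of neutrophil elastase, had 12185 ± 1087 normalised counts in labelled knockouts and 3322 ± 1331 in controls (1.93, SE 0.44, adjusted p = 0.0884, SD, n = 2 in a limma fit). Spint1, whose product HAI-1 inhibits matriptase, was at 0.47 (SE 0.13, adjusted p = 0.119). Of 7 activating proteases, 3 had positive and 4 negative values. Prss8, which encodes prostasin, the partner protease of matriptase, was at -1.12 (SE 0.26, adjusted p = 0.0896) and Htra1, a secreted protease gene, at -0.59 (SE 0.19), while Furin, a proprotein convertase gene, was at 0.75 (SE 0.22) and Plau, which encodes urokinase, at 1.12 (SE 0.45). Of 8 other proteases of the cornified layer 5 were negative, with Ctsl, the cathepsin L gene, at -0.90 (SE 0.21, adjusted p = 0.0915).

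The corneodesmosome and desmosome list, which holds partners of Cdsn in adhesion, had 6 of 7 negative values under IMQ and a median log2 fold change of -0.37, against -0.01 over all genes tested. Dsg1a, a desmoglein 1 gene, was at -0.60 (SE 0.14, limma adjusted p = 0.0895), the desmoplakin gene Dsp at -0.54 (SE 0.17, adjusted p = 0.134) and the plakoglobin gene Jup at -0.37 (SE 0.16, adjusted p = 0.222). Dsg1a has close paralogs in Dsg1b and Dsg1c, and how reads were divided among them is uncertain. Dsg1b went the other way, at 0.44 (SE 0.21, limma adjusted p = 0.276), and was higher in labelled knockouts without overlap. Dsg1c was at -0.95 (SE 0.48) on 3 to 11 reads per IMQ library. In the list of cleavage targets and receptors 4 of 7 were negative: F2rl1, which encodes the receptor PAR2 that kallikreins can cut, was at -0.79 (SE 0.30, adjusted p = 0.187) and F2r, the thrombin receptor gene, at -0.84 (SE 0.22, adjusted p = 0.113). Tslp, a cytokine gene that PAR2 signalling can induce in keratinocytes, was at 1.18 (SE 0.27, adjusted p = 0.0875). In untreated epidermis the medians of the 6 lists lay between -0.05 and 0.29.

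Over the 8 libraries, likeness of pattern was measured as the root mean square difference between log2 CPM profiles, each centred on its own mean, where a smaller value is closer. Klk6 and Klk10 were nearest to each other among the 10 genes, at 0.78, but 28 other genes were closer to Klk6 and 407 closer to Klk10. The nearest gene to Klk6 was the chemokine gene Ccl20 (0.51) and the nearest to Klk10 the kinesin gene Kif1a (0.27). Klk7 was nearest to Lmtk3 (0.05) and, among the 10, to St14 (0.15). St14 itself was nearest to the kinesin gene Kif5b (0.02), Spink5 to Ppp1r13b (0.09), Klk5 to the neurotrophin gene Ntf3 (0.13), Klk8 to the ribosomal protein gene Rpl36a (0.09), Klk11 to Snu13 (0.08), Klk14 to the lectin gene Clec10a (0.23) and Cdsn to Adamts12 (0.09). The size of the profiles differed too: their deviation from their own mean ran from 0.27 in Cdsn to 2.22 in Klk6, with 0.29 in Klk7 and 0.32 in St14.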

How the data were processed

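Polyadenylated RNA was sequenced from 8 libraries in 4 groups of 2. Per the submitters' processing notes, STAR 2.5.2a, Trimmomatic 0.35, R 3.6.1, DESeq2 1.24.0 and the build mm10 served for processing; the sources used here do not give the counter, annotation or gene filter. The authors deposited a signal per gene, called normalised in the deposited tables, with each table (untreated, IMQ) scaled by itself. All values were whole multiples of 1 step per library within 0.001 read, the form that read counts take when divided by a size factor, and division by the step gave the recovered reads.

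Genotype contrasts were fitted on log2(value + 1) by limma 3.58.1 (R 4.3.3) as 4 group means over 8 libraries, with trend and robust moderation, for genes with a mean of at least 10 over either table. Alternatives were pseudocounts of 0.5 and 5, no filter, a minimum of 50, TMM-scaled reads, sex as a block, each table alone, edgeR 4.0.16, DESeq2 1.42.0 and each library left out; the pipeline was tested on simulated counts. Exon lengths came from GENCODE vM21, which held 16723 of the symbols once. Tables and plots were made with pandas 2.3.3, numpy 2.4.6 and matplotlib 3.10.9 under Python 3.11.15. Named genes were the 10 members and, per list and contrast, up to 4 genes of unadjusted p under 0.05 with the largest changes. The members and lists were chosen with earlier results of these data known; motifs and printed promoters were chosen after values were seen. Mitochondrial transcripts were not analysed here.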

Additional observations from a re-analysis of the deposited data

How the results depend on the processing

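The count of the 10 genes past the threshold was 0 in both genotype contrasts and the interaction under every limma and edgeR setting, and 2 under IMQ and 1 for the interaction with DESeq2 on recovered reads; the cause was not tested. Leaving out each library gave 0 to 0 calls in each, 4 to 5 genes with a 2-fold IMQ difference in labelled knockouts and 3 to 3 in controls. Female and male deviations from group means correlated by sex between groups (0.145 to 0.463 across genes), but the labels name no shared litter or day. With sex as a replicate block limma again called 0 of the 10, with Klk6 and Klk10 at adjusted p of 0.0561 and 0.0624 under IMQ, while calls over all genes went to 358 against 64 under IMQ and 8 against 0 untreated. Those calls were 1242, 89 and 99 with DESeq2 under IMQ, untreated and for the interaction, 0 under IMQ and 8 untreated with each table alone, 5 untreated with a pseudocount of 5, and 0 to 299 under IMQ without single libraries.

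The near-zero untreated log2 fold change of Klk6 (0.01) became -0.015 with TMM, -0.080 with edgeR, -0.047 with edgeR and the block and -0.073 with DESeq2, and that of Cdsn (0.02) became -0.0095, -0.011, -0.0086 and -0.0029 in turn. Leaving out single libraries turned untreated log2 fold changes within these ranges: Klk6 -0.44 to 0.46, Klk7 -0.076 to 0.14, Klk8 -0.57 to 0.020, Klk10 -0.72 to 0.14, Klk11 -0.41 to 0.097, Klk14 -1.30 to 0.090, Spink5 -0.26 to 0.021 and Cdsn -0.081 to 0.11. Under IMQ it did so for Klk8 (-0.066 to 0.27) and Klk14 (-0.51 to 0.16), and in the interaction for Klk5 (-0.51 to 0.28) and Klk14 (-0.27 to 1.12). For IMQ over untreated it did so for Klk5 (-0.52 to 0.28 in labelled knockouts, -0.26 to 0.26 in controls) and Cdsn (-0.47 to 0.17 in labelled knockouts). Klk6 and Klk10 kept positive values under IMQ in all of them, at 1.07 to 1.53 and 1.00 to 1.10. Where 1 library remained in a group, the spread of the other groups stood for it. Depth limits Klk14 most, and 2 libraries per group limit every test.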

Other observations

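Spink6, whose human counterpart encodes a kallikrein inhibitor of the same family as Spink5, showed a pattern of its own. It had 419 and 440 reads in the untreated labelled knockouts against 33 and 29 in the untreated controls, 3.85 on the log2 scale (SE 0.46, adjusted p = 0.0634 in limma). Under IMQ it had 43 and 53 reads in labelled knockouts against 22 and 52 in controls (0.41, adjusted p = 0.638). The interaction was -3.44 (SE 0.65, adjusted p = 0.476).

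Between treatments, without a test, Slpi was 67.5-fold higher under IMQ in labelled knockouts and 24.9-fold higher in controls, and Klk13 6.82-fold and 2.52-fold. F2rl1 was at 0.29 times its untreated level under IMQ in labelled knockouts, without overlap, and at 0.68 times in controls, with overlap. Asprv1, the gene of a filaggrin-processing protease, had a log2 fold change of labelled knockout over control of 0.67 (SE 0.26, limma adjusted p = 1.00) in untreated epidermis.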
